A study of Mus musculus with 4 samples.

Results

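The 6 genes described here, Ms4a4a, Ms4a4c, Ms4a6b, Ms4a6c, Ms4a6d and Ms4a7, are members of the Ms4a family that cluster on mouse chromosome 19. They were taken by symbol from a given list, and the files hold 19 genes whose symbol starts with Ms4a among 55536 genes in all. Levels were measured by polyadenylated RNA sequencing in macrophages grown from the bone marrow of C57BL/6J mice, phagocytes that arise in culture from marrow precursors. All 4 libraries belong to 1 group, cells exposed for 60 minutes to a stimulus at 100 ng/mL, with biological replicate numbers 1 to 4 in the labels. The labels give the stimulus as lipid A in one field and as lipoprotein A in others, so it is called the stimulus here. Age and sex of the mice were not recorded. All 4 libraries share a donor label and nothing places them in separate animals or cultures, so the spread between them may be technical. Unstimulated cells were not analysed here, so no value below measures a response to the stimulus.

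Ms4a genes encode small proteins that cross the membrane several times, with both ends in the cytoplasm. The best known are CD20 of B cells, encoded by Ms4a1, and the beta chain of the high-affinity IgE receptor of mast cells and basophils, encoded by Ms4a2. Several other members are expressed in myeloid cells, where they are thought to sit beside immune receptors in the membrane and adjust their signalling. In mice, Ms4a4a protein has been found beside Dectin-1, the receptor for fungal beta-glucan, and Ms4a6d protein with Vsig4, a complement receptor. In humans, variants in the MS4A region are associated with Alzheimer's disease and with the amount of soluble TREM2, a microglial and macrophage receptor.

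The family resemblance can be read in 1 exon. In all 6 genes the coding sequence of the GENCODE M21 annotation on mm10 holds an exon of exactly 57 bases, or 19 codons. It is shown because all 6 genes carry it, and because the second most abundant transcript of Ms4a7 lacks it. Capitals mark bases that are identical to Ms4a7 at the same position, and the Ms4a7 exon itself is in lower case. The sequences are those of the GENCODE M21 transcripts, 5′ to 3′ on the strand of the gene.
Ms4a7: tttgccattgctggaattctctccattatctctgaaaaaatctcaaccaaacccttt
Ms4a4a: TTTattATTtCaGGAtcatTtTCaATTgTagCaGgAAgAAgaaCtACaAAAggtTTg
Ms4a4c: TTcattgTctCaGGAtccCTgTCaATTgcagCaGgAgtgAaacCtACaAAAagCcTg
Ms4a6b: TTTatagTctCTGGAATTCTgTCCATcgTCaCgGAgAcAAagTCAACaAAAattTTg
Ms4a6c: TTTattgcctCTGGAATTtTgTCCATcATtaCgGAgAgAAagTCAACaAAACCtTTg
Ms4a6d: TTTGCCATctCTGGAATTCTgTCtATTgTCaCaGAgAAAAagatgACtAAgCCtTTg
The exons lie at chr19:11325807-11325863 on the minus strand for Ms4a7, at chr19:11386383-11386439 on the plus strand for Ms4a4a and at chr19:11417643-11417699 on the plus strand for Ms4a4c. The exons of Ms4a6b at chr19:11523910-11523966 and Ms4a6c at chr19:11475274-11475330 are on the plus strand, and that of Ms4a6d at chr19:11592865-11592921 is on the minus strand. Ms4a6b and Ms4a6c shared 49 of the 57 bases, and the pairs Ms4a4a with Ms4a4c and Ms4a6b with Ms4a6d shared 42 each. Ms4a6c and Ms4a6d shared 40. Against Ms4a7 the counts were 40 for Ms4a6d, 37 for Ms4a6b and for Ms4a6c, 31 for Ms4a4a and 26 for Ms4a4c. Ms4a6d was thus as near to Ms4a7 as to Ms4a6c in this exon, which was not so over the longest annotated coding sequences. There, aligned bases were 86.4% identical between Ms4a6b and Ms4a6c, 81.8% between Ms4a6b and Ms4a6d, and 79.6% between Ms4a6c and Ms4a6d. Next came 68.9% between Ms4a6b and Ms4a7, 68.8% between Ms4a4a and Ms4a4c, and 67.6% between Ms4a6d and Ms4a7. The other pairs lay between 60.8% and 66.8%, and gaps are left out of all these values.

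This resemblance bears on the values, because reads that match several genes have to be shared out between them. Of all stretches of 31 bases in the annotated transcripts of a gene, none of Ms4a4a and 1.22% of Ms4a7 also occurred in transcripts of another gene. The share was 7.84% for Ms4a6b, 8.11% for Ms4a6d, 17.1% for Ms4a4c and 21.9% for Ms4a6c. Not all of this lies within the family. Ms4a7 shared none with the other members, and Ms4a6c shared 14.2% with other members and 7.72% with genes outside the 6, Prdm11 foremost. For Ms4a4c most of the shared stretches occurred in Ms4a4b, a close relative. On the opposite strand, the transcript gene BE692007 overlaps Ms4a6c, where it covers 8 exons counted over both annotated transcripts, and was listed at 9.61 to 13.1 TPM. TPM is a relative level, scaled to a fixed sum per library and corrected for transcript length. The strand setting of the quantification is not given in the sources used here, so reads from overlapping strands may not have been told apart.

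All 6 genes were expressed in every library, and together they took 2034, 3253, 2817 and 2563 TPM in replicates 1 to 4. Their sum of 2667 ± 509 TPM (SD, n = 4) made up 98.4% to 99.1% of the TPM of all 19 Ms4a genes. Ms4a7 ranked 1 of 6 in every library, Ms4a6b ranked 5 and Ms4a4c ranked 6, while Ms4a4a, Ms4a6c and Ms4a6d changed places between libraries. The mean levels spanned a range from 72.5 TPM for Ms4a4c to 1169.6 TPM for Ms4a7. Expected counts behind these values ran from 434 for Ms4a4c in replicate 1 to 31046 for Ms4a7 in replicate 3.

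**Figure D1:**
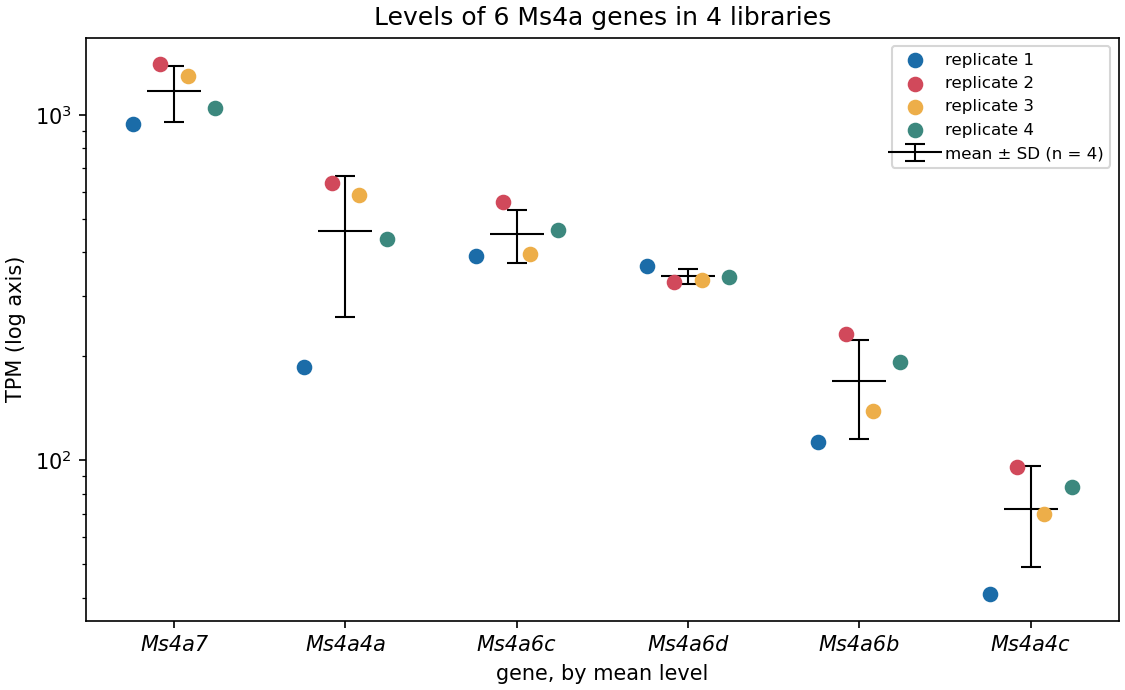
TPM of the 6 Ms4a genes on a log axis, 1 coloured point per library, with the mean and SD over 4 libraries in black; genes run from the highest to the lowest mean. Replicate 1 is the lowest point for every gene except Ms4a6d, whose 4 points lie between 329 and 366 TPM.

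Ms4a7, a marker of tissue and infiltrating macrophages that resting microglia hold at low level, stood at 938, 1401, 1292 and 1046 TPM in replicates 1 to 4. Its mean was 1169.6 ± 214 TPM (SD, n = 4), at rank 98 of the protein-coding genes. The gene occupies chr19:11321039-11336146 on the minus strand (identifier ENSMUSG00000024672.11). Replicates 2 and 3 were the high libraries and replicate 1 the low one. Ms4a7 supplied 46.1%, 43.1%, 45.9% and 40.8% of the TPM of the 6 genes, so its share moved less than its level.

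Ms4a4a, the gene of the protein found beside Dectin-1, stood at 186, 636, 588 and 438 TPM. Replicate 1 lay far below the other three, which kept a mean of 553.8 TPM, against 462 ± 202 TPM (SD, n = 4) over all libraries. The gene lies at chr19:11375523-11392790 on the plus strand (ENSMUSG00000101389.1) and has 1 annotated transcript. Its share of the 6 genes was 9.16% in replicate 1 and between 17.1% and 20.9% in the others, which put it at rank 4 in replicate 1 and at rank 2 or 3 elsewhere.

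The Ms4a6 genes of the mouse are relatives of human MS4A6A. Ms4a6c, at chr19:11469366-11482192 on the plus strand (ENSMUSG00000079419.4), had 389.6, 559, 396 and 463 TPM, with a mean of 452 ± 78.8 TPM (SD, n = 4). Replicate 2 was high, and replicates 1 and 3 were low and close to each other. Ms4a6d, at chr19:11586604-11604849 on the minus strand (ENSMUSG00000024679.10), had 366, 329, 332 and 339 TPM, with a mean of 342 ± 16.8 TPM (SD, n = 4). By these values its libraries lay closer together than those of any other member, with a coefficient of variation of 4.91%. They spread more in the second quantification, a second set of deposited values. There Ms4a6d had 250, 211, 279 and 277 TPM, with a mean of 254 ± 31.7 TPM (SD, n = 4). Ms4a6b, at chr19:11516512-11531256 on the plus strand (ENSMUSG00000024677.13), had 113, 232, 139 and 193 TPM, with a mean of 169 ± 53.7 TPM (SD, n = 4). Its high libraries were replicates 2 and 4.

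Ms4a4c, a gene that is prominent in mouse monocytes, was the least abundant member. It lies at chr19:11404770-11427246 on the plus strand (ENSMUSG00000024675.19) and had 40.9, 95.5, 69.8 and 83.8 TPM, with a mean of 72.5 ± 23.5 TPM (SD, n = 4). As with Ms4a6b, replicates 2 and 4 were the high libraries. In a bulk library a lower level cannot be assigned to fewer expressing cells or to less RNA per cell, which cannot be told apart.

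The order of the levels was examined between the 5 pairs of neighbours, each ratio being taken within a library. The pairs and their direction were set by the mean levels of these same 4 libraries. The ratios and tests below therefore describe the order and are no independent support for it. Ms4a7 exceeded Ms4a4a by 5.04, 2.20, 2.20 and 2.39-fold in replicates 1 to 4. Ms4a4a exceeded Ms4a6c in replicates 2 and 3 only, with ratios of 0.478, 1.14, 1.49 and 0.945. Their mean log2 ratio of -0.10 was smaller than its SD of 0.70 (n = 4), and the exact two-sided sign-flip permutation test gave p = 0.875. The order of this pair turned in the second quantification, taken from the second deposited transcript table, with a mean log2 ratio of 0.021. It also turned without replicate 1, with 0.23. Ms4a6c exceeded Ms4a6d by 1.06 to 1.70-fold, Ms4a6d exceeded Ms4a6b by 1.42 to 3.25-fold, and Ms4a6b exceeded Ms4a4c by 1.99 to 2.75-fold. Part of the Ms4a6c level lay on a transcript annotated as a retained intron. The coding transcript Ms4a6c-201 alone had 275, 440, 270 and 322 TPM in replicates 1 to 4. Ms4a6d-201 had 365, 329, 330 and 339 TPM, so on coding transcripts Ms4a6c was ahead in replicate 2 only. By gene-level TPM, and apart from the Ms4a4a and Ms4a6c pair, each pair had the same order in 4 of 4 libraries. The same exact test then gives p = 0.13, or 0.156 adjusted over the 5 pairs, which is the smallest value that 4 libraries allow, so that 0.05 is out of reach.

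Along the chromosome, all 6 members lie between Ms4a14 and Ms4a2. The first and last Ms4a genes of the chromosome span chr19:10962293-11640851, which holds 22 protein-coding genes, 3 of them not named Ms4a. Of the 13 Ms4a genes outside the listed 6, 2 reached 1 TPM in every library, namely Ms4a14 and Ms4a4b. A further 6 had a count of 0 in all 4 libraries, Ms4a10, Ms4a15, Ms4a18, Ms4a13, Ms4a5 and Ms4a4d, and a count of 0 allows 0.0761 to 0.111 CPM, counts scaled by library size, depending on the library. These limits rest on 3 counts per library and cover counting error only. The other 5, Ms4a8a, Ms4a12, Ms4a1, Ms4a2 and Ms4a3, had reads in at least 1 library and stayed under 1 TPM in all of them.

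**Figure D2:**
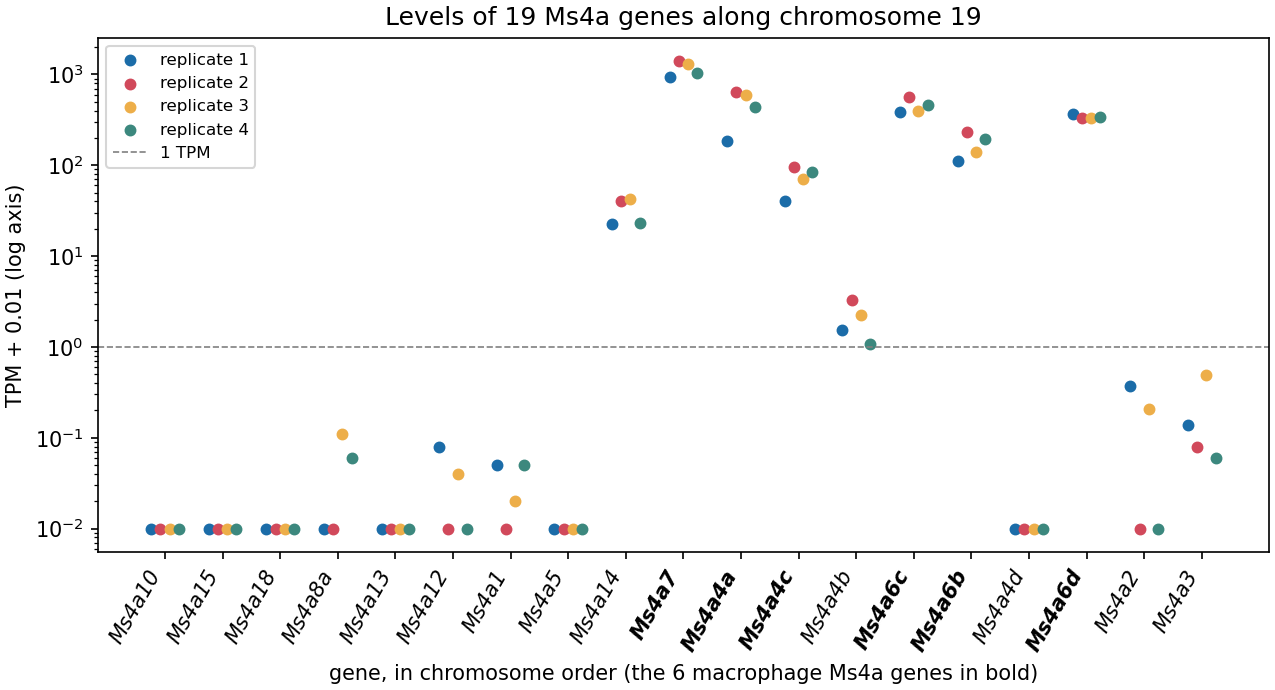
TPM + 0.01 on a log axis for all 19 Ms4a genes in their order along chromosome 19, 1 point per library, with the 6 genes described here in bold and a dashed line at 1 TPM. Levels above 10 TPM run from Ms4a14 to Ms4a6d, interrupted by Ms4a4b and Ms4a4d, and the genes towards either end are at or near 0.

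Ms4a14, the neighbour of Ms4a7 on the same strand, had 22.8, 40.6, 42.1 and 23.2 TPM, a mean of 32.2 ± 10.6 TPM (SD, n = 4). Replicates 2 and 3 were its high libraries, as they were for Ms4a7. Ms4a4b, which in mouse T cells associates with the co-stimulatory receptor GITR, had 1.52, 3.25, 2.22 and 1.06 TPM. Its expected counts were only 17 to 67, and it shares sequence with Ms4a4c, and how reads were split between these genes was not tested. Ms4a3, a gene of granulocyte and monocyte progenitors, averaged 0.183 TPM and was highest in replicate 3 at 0.48 TPM. Ms4a2 averaged 0.14 TPM. The B-cell gene Ms4a1 stayed at or below 0.04 TPM.

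By gene-level TPM, the protein-coding genes just outside the cluster had lower mean levels than any of the 6 members. The margin was smallest against Ms4a4c, at 72.5 TPM, most of it on a short fragment described below. Ms4a4c was at 48.7 TPM in the second quantification, where the neighbours were not compared. Of the 5 nearest on each side, Prpf19, which encodes a splicing factor and ubiquitin ligase, averaged 48.3 ± 11.0 TPM and Tmem109, which encodes a membrane protein, 41.3 ± 8.11 TPM (SD, n = 4). The mitochondrial ribosomal protein gene Mrpl16 averaged 26.1 ± 3.42 TPM and Ccdc86 16.2 ± 7.88 TPM (SD, n = 4). The remaining neighbours, such as the oocyte genes Oosp1, Oosp2 and Oosp3, were at or near 0.

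Differences between the libraries were tested per gene. A gene was called variable where its 4 counts departed from a constant level by more than counting noise and its highest scaled count was at least 2-fold above its lowest. Of the 12626 genes whose mean count reached 10, this called 33.0%. The departure from counting noise alone was past the adjusted threshold in 88.6% of these genes and in all 6 members. All 6 members passed the count minimum, and 2 of the 6 were called, Ms4a4a at 3.48-fold and Ms4a4c at 2.18-fold, a share near that of all genes. The other members differed by 1.91-fold for Ms4a6b, 1.58-fold for Ms4a6c, 1.53-fold for Ms4a7 and 1.09-fold for Ms4a6d, against a median of 1.68-fold and quartiles of 1.38 and 2.39-fold over all tested genes. Both calls rested on replicate 1, since without it no member was called and Ms4a4a differed by 1.41-fold. The call of Ms4a4c was also lost without replicate 2, at 1.74-fold, and in the second quantification, at 1.98-fold.

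**Figure D3:**
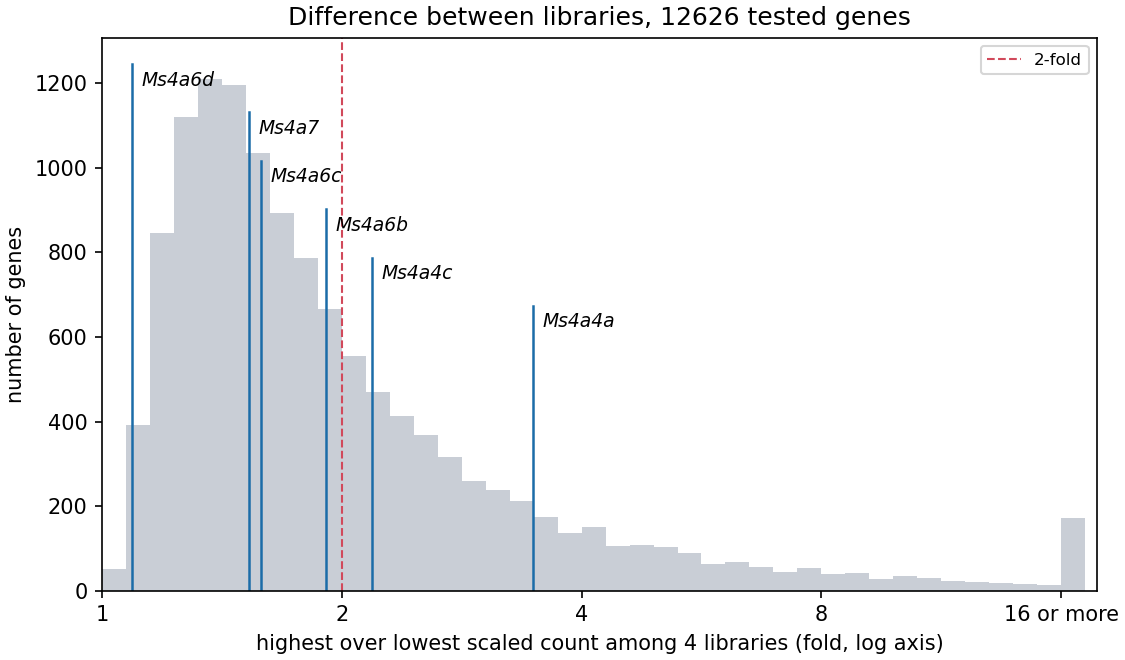
Histogram of the highest over lowest scaled count among the 4 libraries for 12626 tested genes, on a log axis, with blue lines at the 6 Ms4a genes and a dashed line at 2-fold. Ms4a6d lies at the lower edge at 1.09-fold, and Ms4a4c and Ms4a4a lie above the dashed line.

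A similar order, with Ms4a7 just ahead of Ms4a6c, appeared in the biological coefficient of variation that edgeR estimates per gene for the spread beyond counting noise. The estimate is drawn towards the trend of genes of similar abundance. For Ms4a6d it lies above that gene's own coefficient of variation of 4.91%. It was 0.40 for Ms4a4a, 0.29 for Ms4a4c and 0.27 for Ms4a6b. Ms4a7 had 0.25, Ms4a6c 0.24 and Ms4a6d 0.20. Among 11630 genes kept by edgeR's filter, Ms4a4a stood at percentile 86.7 and Ms4a6d at percentile 5.3. Without replicate 1 the value for Ms4a4a was 0.19.

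Within this spread the genes formed distinct library patterns, described here as the deviation of log2(CPM + 1) from the gene's own mean, over the 4 libraries. Ms4a4c deviated by -0.57, 0.50, -0.13 and 0.20 in replicates 1 to 4, and Ms4a6b by -0.49, 0.44, -0.17 and 0.22. These were the closest 2 members, with a root mean square difference of 0.06 in log2 units. Ms4a6c followed the same order of libraries, with -0.27, 0.39, -0.18 and 0.07, except that its replicate 1 and 3 values were near each other. Ms4a7, with -0.36, 0.23, 0.25 and -0.12, was nearer to its neighbour Ms4a14, with -0.50, 0.35, 0.49 and -0.34, at a root mean square difference of 0.19, than to any other member. Ms4a4a, with -1.20, 0.58, 0.52 and 0.10, had the widest deviations. Ms4a6d stayed within 0.08 of its mean in every library.

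**Figure D4:**
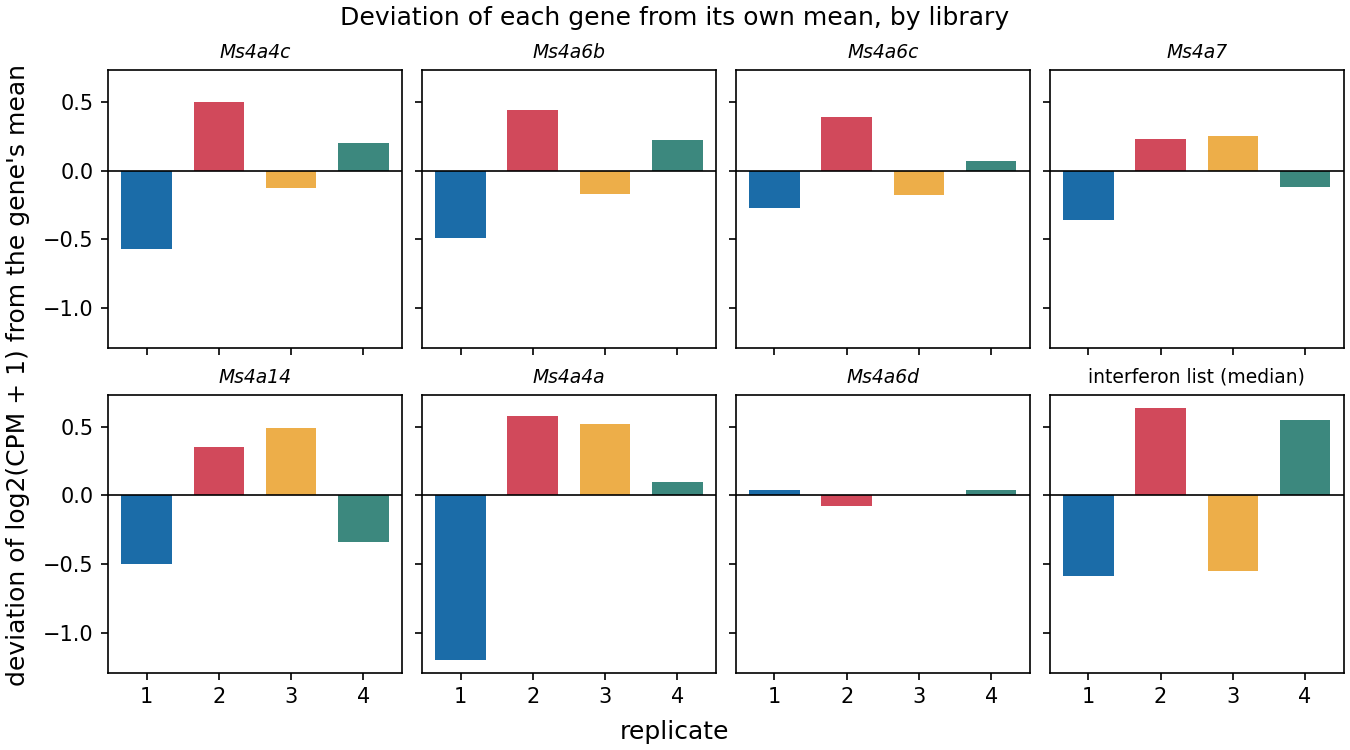
Deviation of log2(CPM + 1) from the gene's mean in replicates 1 to 4 for the 6 Ms4a genes and Ms4a14, with the median over 20 interferon-stimulated genes in the last panel; all panels share 1 axis. Replicate 1 is below 0 in every gene panel except Ms4a6d, and replicate 3 is above 0 for Ms4a7, Ms4a14 and Ms4a4a.

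Some properties of the libraries moved with these patterns. Replicate 1, the low library for 5 of the 6 members, had the largest share of counts in ribosomal RNA genes, 12.4%, against 3.43% to 7.28% in the others. A list of 20 interferon-stimulated genes deviated by a median of -0.59, 0.64, -0.55 and 0.55 in replicates 1 to 4. It was high in replicates 2 and 4, as Ms4a4c and Ms4a6b were, but this was not particular to interferon-stimulated genes. Of the macrophage markers, Csf1r (-0.59, 0.58, -0.25 and 0.26) and Lyz2 (-0.44, 0.57, -0.36 and 0.23) were high in the same libraries. Itgam, Mrc1, C1qa and Cd163 were instead highest in replicate 1. Of the 20 interferon-stimulated genes, 15 were called variable, against 33.0% of all tested genes. Cxcl10, a chemokine gene, had 417, 1533, 247 and 1485 TPM. Rsad2, the gene of the antiviral enzyme viperin, had 133, 485, 192 and 575 TPM, and the PYHIN gene Ifi204 had 258, 343, 376 and 305 TPM. The part of these properties in the Ms4a values was not tested. Replicates 1 and 2 were made from 6 read files each and replicates 3 and 4 from 4 each. Within the 6-file pair Ms4a4a differed by 3.48-fold and Ms4a4c by 2.18-fold, which equals the overall folds because replicates 1 and 2 are the lowest and highest libraries of both genes. Within the 4-file pair the folds were 1.34 for Ms4a4a and 1.26 for Ms4a4c. The part of the file number was not tested.

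Cell type markers were read alongside. All 13 macrophage markers reached 1 TPM in every library, led by Lyz2, the lysozyme gene, at 19685 ± 6749 TPM, the lysosomal membrane gene Cd68 at 3029 ± 388 TPM and the complement gene C1qb at 2865 ± 405 TPM (SD, n = 4). The summed level of 12 neutrophil and granulocyte precursor markers was 732 TPM in replicate 3, against 69.7 to 200.01 TPM in the other libraries, led by S100a9, S100a8 and Ngp. No Ms4a member peaked in replicate 3 except Ms4a7, by its scaled counts and by a narrow margin. Summed levels of the other lists ranged from 62.8 to 378 TPM for 7 monocyte markers, where Nr4a1, Ly6c2 and Ccr2 led, and from 12.1 to 20.01 TPM for 8 B cell markers, of which Cd22, Cd79b and Vpreb1 were highest. They ranged from 4.84 to 10.7 TPM for 8 dendritic cell markers, led by Batf3, Siglech and Ccr9, and from 4.96 to 10.1 TPM for 8 stromal and endothelial markers, led by Kdr, Pecam1 and Cdh5. They were 0.39 to 1.33 TPM for 8 T and NK cell markers, led by Lck, Cd3g and Nkg7, and 0.97 to 3.98 TPM for 9 mast cell and basophil markers, led by Kit, Hdc and Gata2. The B cell marker Blk and the mast cell markers Tpsb2, Cma1 and Mcpt4 were at 0 in all 4 libraries. At 1 TPM or more in every library were 4 of the 12 neutrophil, 3 of the 7 monocyte, 1 of the 8 B cell, 1 of the 8 dendritic and 1 of the 8 stromal markers, and none of the T and NK or mast cell markers. Nr4a1 alone, at 43.2, 362, 143 and 361 TPM in replicates 1 to 4, made up most of the monocyte sums. The median deviation of the 7 monocyte markers was instead highest in replicate 3, at -0.21, -0.28, 0.57 and -0.16 in replicates 1 to 4. Monocytes share many genes with macrophages, and the part of any of these cells in the Ms4a values was not tested.

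The genes of receptors and signalling proteins that were listed beside the Ms4a family were present to different degrees. Of these proteins, a contact with an Ms4a protein is described above for Dectin-1, Vsig4 and GITR only. Clec7a, the gene of Dectin-1, had 172, 383, 757 and 575 TPM, low in replicate 1 like Ms4a4a but highest in replicate 3, and was called variable at 5.55-fold. Syk, the kinase downstream of Dectin-1, had 132, 212, 241 and 228 TPM and was called variable at 2.02-fold. Fcer1g, the signalling chain shared by Fc receptors, averaged 1471 ± 296 TPM (SD, n = 4). Trem2 averaged 923 ± 139 TPM and its adaptor gene Tyrobp 3008 ± 298 TPM (SD, n = 4), and neither was called variable, nor was Fcer1g. Vsig4 was near 0 at 0.04 to 0.54 TPM, and Tnfrsf18, the gene of GITR, was listed at 0 in replicate 4 and reached 0.38 TPM at most. Ms4a6d at a mean of 342 TPM thus stood beside a Vsig4 level near 0.

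Tmem176a and Tmem176b encode proteins with a membrane topology like that of the Ms4a family. Tmem176b had 14.4, 75.6, 42.1 and 57.9 TPM and Tmem176a 8.38, 26.6, 21.6 and 27.5 TPM. Both were lowest in replicate 1, as Ms4a4a was, and both were called variable.

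For each member the 3 protein-coding genes of at least 10 TPM whose deviations over the 4 libraries lay nearest were sought among 6457 genes. For Ms4a4a they were Kctd12, which encodes a subunit of GABA-B receptors, the cytokine gene Osm and the growth factor gene Pdgfc, with root mean square differences of 0.12, 0.12 and 0.14 in log2 units, and no gene lay within 0.1. For Ms4a7 they were Thoc2, Ethe1 and Gadd45a at 0.03, 0.03 and 0.04, with 0.945% of the genes within 0.1. For Ms4a4c they were Slfn5, Themis2 and Flcn at 0.02, 0.03 and 0.04, with 1.02% within 0.1. For Ms4a6b they were Asah2, Usf2 and Fam13b, with 1.78% within 0.1, and for Ms4a6c Kif13a, Lrp10 and Ripk2, with 1.58% within 0.1. The flat pattern of Ms4a6d was the least distinctive, with Gripap1, Trip12 and Tm9sf4 nearest and 11.8% of the genes within 0.1. The measure rests on 4 values per gene, and the lists are a description.

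Of the annotated transcripts, Ms4a7-203 led Ms4a7. It begins at the upstream start, has 7 exons and 702 coding bases, and took 67.7%, 62.4%, 71.8% and 62.1% of the TPM of the gene in replicates 1 to 4. Second was Ms4a7-202, with 6 exons and 645 coding bases, which lacks the 57-base exon printed above and ends earlier. It took 30.1%, 35.2%, 25.9% and 35.7%, lowest in replicate 3, where Ms4a7-203 was highest. Since 57 bases are 19 codons, the reading frame is kept without the exon. In the second quantification the share of Ms4a7-202 was 40.1%, 41.9%, 19.6% and 33.5%, so both tables give replicate 3 the lowest share, while replicates 1 and 2 are higher here than in the first table. Ms4a7-201, which starts downstream at base 11334695 of chromosome 19 and has the longest coding sequence at 801 bases, took 0.111% to 0.29%.

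**Figure D5:**
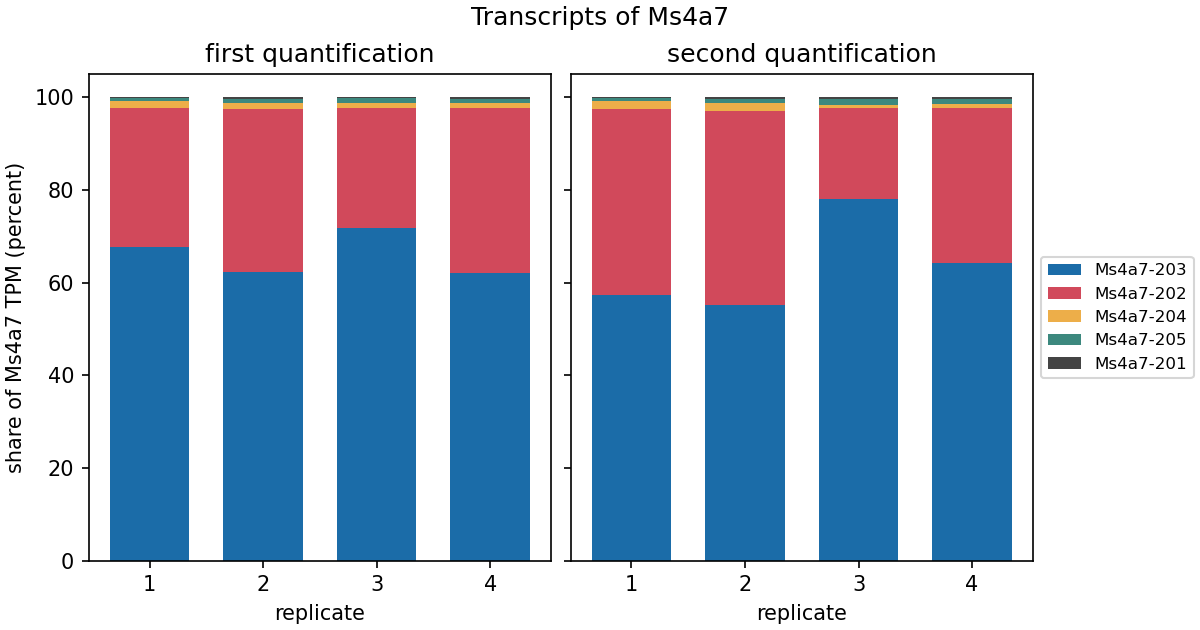
Share of Ms4a7 TPM taken by each of its 5 annotated transcripts in replicates 1 to 4, stacked to 100%, in the first (left) and the second (right) quantification. Ms4a7-203 and Ms4a7-202 take nearly the whole of each bar, and the share of Ms4a7-202 is lowest in replicate 3 on both sides.

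The other members differed in how much of their signal lay on full coding transcripts. Ms4a6d-201 took 99.7% ± 0.227 of its gene (SD, n = 4). Ms4a6c-201, with 651 coding bases, took 71.8% ± 4.75, and the rest was Ms4a6c-202, a short transcript annotated as a retained intron. Ms4a6b-201 took 65.7% ± 2.64 and Ms4a6b-205, which has the same 732 coding bases and an earlier start, 27.4% ± 2.49. Ms4a6b-202, annotated as a retained intron, took 0.284% to 10.9% in the first table, and 27.9%, 28.0%, 3.11% and 8.08% in replicates 1 to 4 of the second. For Ms4a4c the fragment Ms4a4c-203, with 361 bases in 4 exons and no 57-base exon, took 69.1% ± 5.34 of the TPM, while the full-length Ms4a4c-201 took 30.2% ± 4.57. TPM weights short transcripts up, and in replicate 1 Ms4a4c-203 held 53.9 expected counts against 373 for Ms4a4c-201.

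Ms4a6b and Ms4a6c resemble each other before their starts. Of the 6 members 5 have a RefSeq promoter window on GRCm38.p6, and Ms4a7 has 2. The 250 bases before the start are shown for the Ms4a6b and Ms4a6c pair, with capitals for runs of at least 12 bases that occur in both, and for the upstream start of Ms4a7, from which nearly all of its transcripts begin. In the Ms4a7 window capitals mark the core of the binding motif of ETS factors, GGAAGT or its reverse complement. The windows are chr19:11518309-11518558 and chr19:11469118-11469367 on the plus strand and chr19:11336147-11336396 on the minus strand, 5′ to 3′.
Ms4a6b: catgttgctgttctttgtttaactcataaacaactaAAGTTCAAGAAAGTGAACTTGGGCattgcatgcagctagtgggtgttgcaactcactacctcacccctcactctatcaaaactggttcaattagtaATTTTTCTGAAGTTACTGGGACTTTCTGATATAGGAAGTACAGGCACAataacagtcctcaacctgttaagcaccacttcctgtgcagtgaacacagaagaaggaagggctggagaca
Ms4a6c: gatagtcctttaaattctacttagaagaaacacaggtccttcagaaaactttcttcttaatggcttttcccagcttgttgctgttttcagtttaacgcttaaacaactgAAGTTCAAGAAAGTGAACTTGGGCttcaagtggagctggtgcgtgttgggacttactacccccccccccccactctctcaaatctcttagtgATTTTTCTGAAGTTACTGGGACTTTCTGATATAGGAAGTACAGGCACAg
Ms4a7: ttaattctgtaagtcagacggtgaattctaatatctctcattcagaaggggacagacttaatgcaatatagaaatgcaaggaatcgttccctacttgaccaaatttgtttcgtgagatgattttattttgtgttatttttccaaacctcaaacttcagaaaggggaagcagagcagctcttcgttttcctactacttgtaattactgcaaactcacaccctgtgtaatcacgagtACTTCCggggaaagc
The Ms4a6b and Ms4a6c windows shared 2 such runs, the longer of 48 bases. With the 50 bases after the start included, 217 bases aligned between them at 88.5% identity. Ms4a4c and Ms4a6b, whose library patterns were nearest, aligned over 59 bases, with 8 bases as their longest shared run. A GGAAGT match within the longer run lies 85 bases before the RefSeq start in Ms4a6b and 16 before it in Ms4a6c, so the annotated starts do not fall at the same point of the shared sequence. In the upstream window of Ms4a7 and in the window of Ms4a4c a match lies 15 bases before the RefSeq start. The windows of Ms4a4c and Ms4a6b are at the starts of Ms4a4c-201 and Ms4a6b-201. The earlier starts of Ms4a4c-203, at base 11404770, and Ms4a6b-205, at base 11516512, had no window and were not examined.

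Motifs were counted on both strands of the RefSeq windows, 250 bases before to 50 bases after the start, and they were chosen with the sequences in view. GGAAGT occurred in the windows of Ms4a6b, Ms4a6c, Ms4a4c and the upstream start of Ms4a7, and in 23.8% of 32851 RefSeq windows. GAAANNGAA, a pattern of interferon regulatory factor sites, occurred in the windows of Ms4a6b, Ms4a6c and both Ms4a7 starts, and in 8.56% of all windows. Ms4a4a held neither. The AP-1 motif TGANTCA occurred in the downstream Ms4a7 window and in 7.81% of all windows. No member window held the C/EBP pattern TTNNGCAA, which 10.8% of all windows hold. These are matches of letters, and binding was not measured here.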

How the data were processed

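Each of the 4 libraries had 1 gene table and 2 transcript tables on mm10 with GENCODE M21, per the deposited lists of files. Expected counts and TPM were deposited by the authors in the gene and first transcript tables, whose headers are those of RSEM. The gene table also holds the bounds of a credibility interval of TPM, a signal whose level is not stated, and a posterior SD of each count, used as a score, per the file headers. The second transcript table, called the second quantification, holds deposited estimated counts and TPM and has the headers of kallisto. Neither tools nor versions are given in the sources. Total gene counts ran from 26917324 to 39438414, and 86 genes had no transcript in the second table. Rows that name no gene held 0.103% to 0.118% of counts and were left out.

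Expected counts were rounded, and edgeR 4.0.16 under R 4.3.3 (limma 3.58.1 as its dependency) gave TMM library sizes. DESeq2 1.42.0 gave alternative size factors. For each gene whose mean count reached 10, a chi-square statistic (3 degrees of freedom) compared the 4 counts with a constant level. P-values were adjusted by Benjamini-Hochberg over all these genes at a threshold of 0.05, and a call also needed a fold of at least 2. The test was run on simulated counts that held counting noise and known changes but no further spread between libraries. That check therefore does not cover the wider spread of the real counts. The test covers counting error only. The biological coefficient of variation came from an intercept-only edgeR model. Python 3.11.15, NumPy 2.4.6, SciPy 1.17.1, pandas 2.3.3 and matplotlib 3.10.9 did the rest. Alternatives covered normalization, count filters, the fold, the quantification, the pseudocount and each library left out.

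Besides the 6 members, genes were named by rule. The rule takes other Ms4a genes with a mean of at least 0.1 TPM, and neighbours and nearest-pattern genes of at least 10 TPM. It also takes the up to 3 highest genes of each list and every gene of the receptors and signalling proteins listed beside the Ms4a family. Genes named beyond it, such as the Oosp genes, were chosen after their values were seen. The members, lists and rules were chosen with earlier results of these data known.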

Additional observations from a re-analysis of the deposited data

How the results depend on the processing

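Of 165 alternative values of 26 results, 144 counted as keeping their side and size, 19 as moved and 2 as reversed. The allowance was not the same for all results, so a kept value can still differ. For counts and spreads it was a factor of 1.5. Among levels, Ms4a4a at 312 CPM per kilobase of effective length against 462 TPM counted as kept. Ms4a6d at a posterior mean TPM of 325 against 342 TPM counted as moved. The reversed ones are the log2 ratio of Ms4a4a over Ms4a6c, -0.10, which was 0.021 in the second quantification and ranged from -0.32 to 0.23 with 1 replicate left out, above 0 without replicate 1. The mean TPM of members fell in the second quantification, to 48.7 for Ms4a4c, 348 for Ms4a6c, 254 for Ms4a6d and 876 for Ms4a7. There it was 391 for Ms4a4a and 145 for Ms4a6b, which counted as kept. As CPM per kilobase of effective length the values were 49.0 for Ms4a4c, 114 for Ms4a6b, 303 for Ms4a6c, 229 for Ms4a6d and 786 for Ms4a7, a scale with another sum. The log2 ratio of Ms4a6b over Ms4a4c was 1.58 in the second quantification, against 1.24. Genes called variable numbered 4167, rose to 7347 (58.2% of those tested) with a fold threshold of 1.5, and lay between 2048 and 3683 with 1 replicate left out, the fewest without replicate 1. Members called variable were 5 with a fold of 1.5 and 0 to 2 with 1 replicate left out, where 16.1% to 29.2% of all genes were called. In the second quantification 1 was called, Ms4a4a, as were 36.1% of all genes, and Ms4a4c fell short at 1.98-fold. The biological coefficient of variation of Ms4a4a ran from 0.19 without replicate 1 to 0.44 without replicate 4. The share of Ms4a6b-201 was 60.4% in the second quantification. The causes were not tested. With a pseudocount of 0.1, 16 of the 18 nearest genes were the same. No paired analysis was possible because the libraries form 1 group. Depth limits the genes near 0, where a count of 0 still allows up to 0.111 CPM.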
